A study of Mus musculus with 8 samples.

Results

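The regions described here carried an H3K4me1 peak in both arms of a reprogramming experiment and overlapped no peak of NANOG, BRG1 or H3K27ac in either arm. They were selected by peak presence alone. H3K4me1 peaks of the 2 arms were merged where they overlapped or touched, which gave 86573 regions, and 41500 of these held peaks of both arms. Of the common regions, 5848 overlapped no FLAG, BRG1 or H3K27ac peak, which is 14.1% (Wilson 95% interval 13.8 to 14.4) of the common regions and 6.75% of all H3K4me1 regions. This share depended on the peak lists, from 6.28% with H3K4me1 summits of at least 15 tags to 31.1% where only other-target peaks with a score of at least 100 left a region out. These are called H3K4me1-only regions, and the other 35652 common regions are called regions with another target.

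CUT&Tag, which uses an antibody-tethered transposase to insert sequencing adapters next to the bound protein or mark, was done on mouse embryonic fibroblasts (MEFs) at day 5 of reprogramming. All cells received Oct4 by retrovirus. The NanogWT arm also received native Nanog, and the NanogBiD arm received Nanog fused at its N-terminus to the BRG1-interacting domain of SS18, written NanogN70 in the labels. The cells carried the OG2 reporter, in which Oct4 regulatory DNA drives GFP, and were cultured in iCD3 medium. The antibodies recognised FLAG, which tags NANOG, BRG1 (Smarca4), the motor subunit of BAF remodellers, and the histone marks H3K27ac and H3K4me1. The antibody field of the labels reads H3K4me, and the titles specify H3K4me1. Each of the 8 groups was a single merged library, so no test between groups was possible and no p-value is given. The intervals below cover counting error over regions, which are not replicates, and say nothing of the spread between cultures.

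H3K4me1 is placed on enhancers and on the flanks of promoters by the MLL3 and MLL4 methyltransferases. A distal site with H3K4me1 but without H3K27ac is commonly called a primed enhancer, whereas H3K27ac marks active enhancers and promoters. At CpG-rich promoters of silent developmental genes, H3K4 methylation can coexist with the Polycomb mark H3K27me3. Neither H3K27me3 nor H3K4me3 was measured here, and the lack of a peak does not show the lack of a signal.

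H3K4me1-only regions occurred at promoters and away from them, and the sequences at their summits differed accordingly. The following windows of 300 bases, plus strand of mm10, were centred on the NanogWT summit of H3K4me1-only regions at promoters of developmental genes. They show how dense CpG dinucleotides, given in capitals, can be at such summits. They belong to the 4 regions with the highest summits among windows at promoters of the listed genes that were CpG-rich and free of annotated exons, a choice made after values were seen.
Wnt11, chr7:98836683-98836982: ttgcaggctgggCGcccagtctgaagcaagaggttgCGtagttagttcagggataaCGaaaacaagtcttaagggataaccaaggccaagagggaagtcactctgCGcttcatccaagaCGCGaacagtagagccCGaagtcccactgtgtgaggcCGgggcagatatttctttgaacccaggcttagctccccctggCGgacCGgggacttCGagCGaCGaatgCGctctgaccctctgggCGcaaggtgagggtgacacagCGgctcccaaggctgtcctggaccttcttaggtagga
Esrp1, chr4:11387354-11387653: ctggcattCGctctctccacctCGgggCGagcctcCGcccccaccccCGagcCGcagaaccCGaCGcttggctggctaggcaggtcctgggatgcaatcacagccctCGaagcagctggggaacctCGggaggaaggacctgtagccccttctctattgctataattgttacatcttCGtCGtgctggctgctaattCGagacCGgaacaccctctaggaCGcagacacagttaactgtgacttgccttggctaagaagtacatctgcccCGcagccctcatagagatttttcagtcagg
Nr5a2, chr1:136952940-136953239: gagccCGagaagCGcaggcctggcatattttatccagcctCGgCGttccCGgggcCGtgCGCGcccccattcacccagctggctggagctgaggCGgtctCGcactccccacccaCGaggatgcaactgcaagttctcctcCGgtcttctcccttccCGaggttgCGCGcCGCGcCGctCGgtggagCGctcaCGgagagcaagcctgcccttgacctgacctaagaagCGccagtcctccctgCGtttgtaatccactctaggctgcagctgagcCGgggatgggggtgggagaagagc
Foxa2, chr2:148046310-148046609: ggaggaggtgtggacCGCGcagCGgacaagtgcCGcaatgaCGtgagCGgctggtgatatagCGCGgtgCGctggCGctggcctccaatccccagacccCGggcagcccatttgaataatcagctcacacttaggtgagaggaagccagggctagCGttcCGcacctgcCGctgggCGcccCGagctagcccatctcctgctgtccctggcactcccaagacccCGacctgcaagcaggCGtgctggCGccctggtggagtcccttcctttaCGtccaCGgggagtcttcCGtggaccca
Wnt11 encodes a non-canonical Wnt ligand, Esrp1 an epithelial splicing regulator, Nr5a2 an orphan nuclear receptor that can replace Oct4 in reprogramming, and Foxa2 an endodermal pioneer factor. The Nr5a2 window held 24 CpGs with a GC content of 65.7%, the Foxa2 window 22 with 65.3%, and the Wnt11 and Esrp1 windows 16 each with 57.3% and 58.0%.

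Away from promoters, consensus matches of insulator, AP-1 and E-box factors were searched. The windows of 100 bases below were centred on NanogWT summits outside promoters, and the capitals mark the match. For each consensus they are the 2 windows with the highest summits among those free of annotated exons, again a choice made after values were seen. The following windows, named by the nearest annotated gene, held the consensus of CTCF, the zinc finger protein of insulators and loop anchors.
Cd180, chr13:102678676-102678775: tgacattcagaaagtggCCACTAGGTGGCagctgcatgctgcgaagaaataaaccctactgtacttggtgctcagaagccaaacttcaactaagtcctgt
Gm31452, chr13:107101777-107101876: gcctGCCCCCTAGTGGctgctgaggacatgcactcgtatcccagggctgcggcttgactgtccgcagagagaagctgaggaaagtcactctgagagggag
These 2 windows held the consensus of AP-1, the FOS and JUN dimers that are abundant in fibroblasts.
G430095P16Rik, chr8:84742418-84742517: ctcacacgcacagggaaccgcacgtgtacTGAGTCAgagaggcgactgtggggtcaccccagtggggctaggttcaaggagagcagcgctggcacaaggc
Gse1, chr8:120319547-120319646: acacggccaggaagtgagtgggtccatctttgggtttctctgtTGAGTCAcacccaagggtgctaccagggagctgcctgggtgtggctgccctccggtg
Matches to the E-box, the letters CAGGTG or their complement, which ZEB and SNAI repressors and some bHLH factors recognise, were found in these windows near genes of neuronal differentiation factors.
Neurod6, chr6:55677011-55677110: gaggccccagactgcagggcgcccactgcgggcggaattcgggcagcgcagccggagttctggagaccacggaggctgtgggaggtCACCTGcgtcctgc
Neurog2, chr3:127640049-127640148: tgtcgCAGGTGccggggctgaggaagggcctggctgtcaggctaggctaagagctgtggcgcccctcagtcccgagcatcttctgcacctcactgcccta
The region near Cd180 had summits of 18 tags in NanogWT and 21 in NanogBiD, and the region near Neurog2 had 20 and 18.

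H3K4me1-only regions were lower and narrower than regions with another target. The summit height is the number of tags piled up at the summit. Its median over H3K4me1-only regions was 14 tags in NanogWT (quartiles 12 and 17, range 8 to 29) and 13 in NanogBiD (11 and 15, range 8 to 26). Over regions with another target the medians were 17 and 15 tags, and the highest summits reached 77 and 65. Heights of the classes therefore overlapped widely, but none of the H3K4me1-only regions reached the upper end. Their median width was 1006 bp against 1286 bp. A wider region can more easily overlap a peak of another target, so the rule may set part of this difference. The summits of the arms lay a median of 114 bp apart within a region, against 110 bp. Of the 5848 regions, 5763 were formed from exactly 1 peak of each arm. A pileup of 14 tags has an exact Poisson interval of 7.65 to 23.5, so the height of a typical region is known only roughly. H3K4me1-only regions found in a single arm had lower summits still. The 15006 of NanogWT had a median height of 13 tags and a median width of 720 bp, and the 5101 of NanogBiD had 11 tags and 622 bp. These widths are not comparable with that of common regions, which span the merged peaks of both arms.

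**Figure D1:**
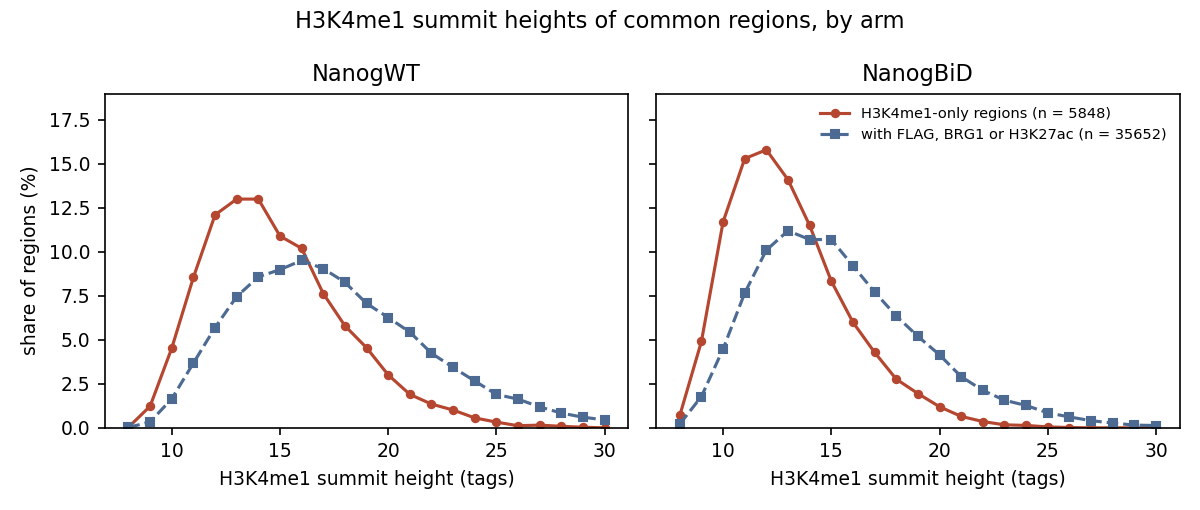
Share of common H3K4me1 regions (vertical axis, percent) at each summit height in tags (horizontal axis, shown to 30 tags), in NanogWT (left) and NanogBiD (right). Circles are the 5848 H3K4me1-only regions and squares the 35652 regions with another target. The H3K4me1-only curve lies to the left in both arms, with medians of 14 and 13 tags against 17 and 15.

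Unscaled summit heights at these regions were slightly lower in NanogBiD than in NanogWT, as they were at regions with another target. The median log2 of NanogBiD over NanogWT height was -0.18 (95% interval of the median -0.19 to -0.15), and it was also -0.18 (-0.19 to -0.18) over regions with another target. Heights were lower in NanogBiD at 3753 H3K4me1-only regions (64.2%), higher at 1372 (23.5%) and equal at 723 (12.4%), near the 66.2%, 23.8% and 9.99% of all common regions. Heights are not scaled to depth, which is unknown, and depth and the fusion cannot be told apart as sources of a shift shared by all regions. With heights divided by the median of all common regions in each arm, the median at H3K4me1-only regions was 0.10. This scaling adds the same constant to every region, so it moves regions with another target alike. A height at least 2-fold higher in NanogBiD was seen at 1 H3K4me1-only region (0.0171%), against 0.0169% of all common regions. A height at least 2-fold lower was seen at 47 (0.804%), against 0.858% of all common regions. Neither share stood apart from its background. Both shares are limited by the rule, which needs a peak in both arms, and the lowest height was 8 tags in each. Low counts here therefore do not show that the mark was unchanged.

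Among the 578 H3K4me1-only regions with at least 20 tags in the higher arm, the widest differences were at sites of low height in 1 arm. An intergenic region at chr7:114922115-114922872, 128 kb from Insc, had 10 tags in NanogWT and 25 in NanogBiD. The region at the Ano8 promoter had 13 and 24 tags, and the one at the Brsk2 promoter had 12 and 21. In the other direction, an intronic region at chrX:100434765-100435505, near Otud6a, had 23 tags in NanogWT and 9 in NanogBiD. An exonic region of chromosome 5 near the antisense gene Clnkos and an intronic region of chromosome 7 near Gm45311 each had 21 and 9 tags. These regions were picked as the extremes, and their differences were not tested.

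Many H3K4me1-only regions were promoter regions, which the name primed enhancer does not cover. Of the 5848, 2048 (35.0%, 33.8 to 36.3) lay within 2 kb of a transcription start site. Such windows cover 10.9% of chromosomes 1 to 19 and X. A further 484 (8.28%) overlapped an exon, 1599 (27.3%) lay in introns and 1717 (29.4%) between genes. Regions with another target lay at promoters in 40% (39.5 to 40.5), a difference of -4.95 points (-6.27 to -3.62), and the H3K4me1-only share was higher on 2 of 20 chromosomes. H3K4me1-only regions of a single arm differed more, with 15.6% at promoters in NanogWT and 17.4% in NanogBiD. Outside promoters, the median distance to a protein-coding start site was 27.6 kb for H3K4me1-only regions and 31.1 kb for regions with another target.

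The promoter share rose with the height of the mark. It was 21.5% among the 1235 H3K4me1-only regions whose lower summit had 8 to 10 tags, 25.7% at 11 to 12, 40.7% at 13 to 14, 56.5% at 15 to 17, and 71.3% among the 258 regions with 18 tags or more. At the same heights, regions with another target had 18%, 25.5%, 34.5%, 46.3% and 61.8%. At matched height the H3K4me1-only share was thus nearly equal at 11 to 12 tags and the higher one in the other bands. Over all heights it was the lower. With a summit of at least 15 tags required in both arms, the difference was 6.80 points in the opposite direction, and with a score of at least 100 in every list it was 1.14 points, with an interval (-0.883 to 3.15) that includes 0.

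Near start sites, the summits of the classes lay on opposite sides. Summits of H3K4me1-only regions were found in the 500 bp upstream of a protein-coding start site in 390 cases (6.67%) and in the 500 bp downstream in 588 (10.1%). For regions with another target the order was turned, with 5631 (15.8%) upstream and 2787 (7.82%) downstream. Of summits within 1 kb of a start site, 62.4% (59.7 to 65) of 1302 were downstream in H3K4me1-only regions and 36.8% (35.8 to 37.7) of 10201 in regions with another target. NanogBiD summits gave 7.32% upstream and 9.68% downstream for H3K4me1-only regions, and 16.0% and 7.87% for the others. The difference of 25.6 points between the classes kept its direction under every alternative run.

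**Figure D2:**
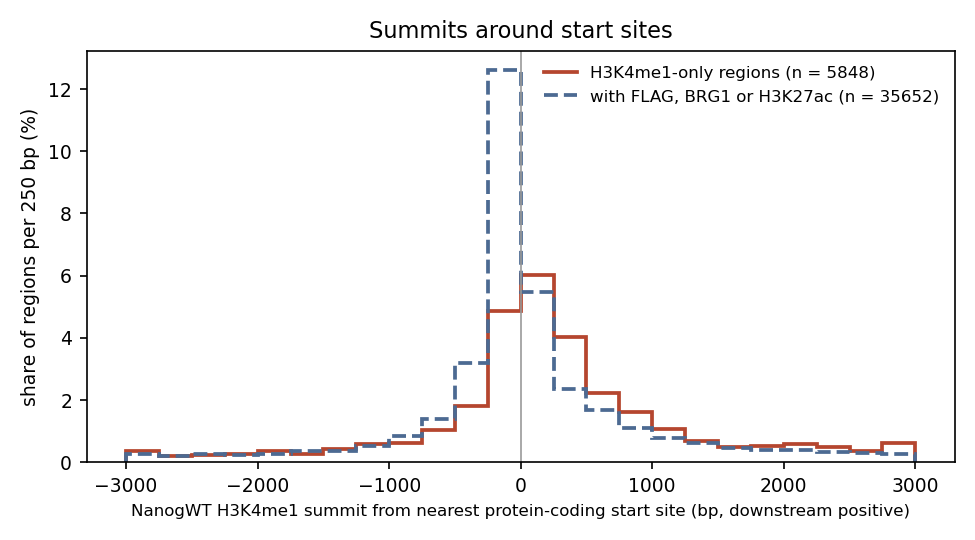
Share of common H3K4me1 regions per 250 bp (vertical axis, percent) by distance of the NanogWT summit from the nearest protein-coding start site (horizontal axis, bp, downstream positive). The solid line is the 5848 H3K4me1-only regions and the dashed line the 35652 regions with another target. The dashed line peaks just upstream of the start site and the solid line just downstream, with 10.1% of H3K4me1-only summits in the first 500 bp downstream.

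Base composition followed position. CpG-rich windows, defined by a GC content over 50% and a CpG observed over expected ratio over 0.6, made up 16.9% (16.0 to 17.9) of H3K4me1-only regions and 19.9% (19.5 to 20.3) of regions with another target. At promoters the shares were 38.3% and 46.0%. Outside promoters the order was reversed, with 204 of 3799 windows (5.37%, 4.70 to 6.13) against 2.47% (2.27 to 2.69). H3K4me1-only regions of a single arm outside promoters were CpG-rich in 0.758% for NanogWT and 1.5% for NanogBiD. Windows 1 kb downstream of the H3K4me1-only summits outside promoters were CpG-rich in 0.526%. The median GC content was 53.0% at H3K4me1-only summits and 46.7% at 1 kb, and repeat-masked bases made up 10.3% and 22.6%. The difference over all regions, -2.97 points, turned to 6.06 with summits of at least 15 tags and was 0.0527 with scores of at least 100, where the interval (-1.80 to 1.94) includes 0.

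Compared with regions with another target, AP-1 letters were less frequent in H3K4me1-only regions, and E-box letters and, in windows of 300 bases, CTCF letters were more frequent. The searches covered both strands of the 300 bases around the NanogWT summit. AP-1 was searched as TGANTCA, TEAD as GGAATG, RUNX as TGTGGTT, the OCT octamer as ATGCAAAT, SOX as ACAATG, FOX as TGTTTAC, ETS as CCGGAAG, NFI as TTGGCA, a single arm of its palindrome, CEBP as TTGCNNCAA, homeobox as TAATTA, and the E-box as CAGGTG. CTCF was searched by its consensus. A match is a description of the letters and does not show that a factor was bound.

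The AP-1 match occurred in 12.1% (11.3 to 13) of H3K4me1-only windows, in 7.20% of windows 1 kb downstream of them, and in 18.3% of regions with another target. The difference between the classes was -6.11 points (-7.02 to -5.16), and H3K4me1-only regions had the lower share on each of 20 chromosomes. Outside promoters the shares were 14.2% and 23.7%, and there H3K4me1-only regions of a single arm had similar values to the common ones, with 14.4% in NanogBiD and 15.9% in NanogWT. In all RefSeq promoters of the same length, 7.81% held the match. TEAD letters, by contrast, were found in 16.6% and 17.2% of windows, a difference of -0.633 points whose interval (-1.65 to 0.417) includes 0.

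The E-box occurred in 25.6% (24.5 to 26.7) of H3K4me1-only windows and in 19.3% of regions with another target, a difference of 6.24 points (5.07 to 7.45), higher on 19 of 20 chromosomes. In windows of 100 bases the difference was 2.79 points, and with scores of at least 100 it was 8.99 points. At promoters the shares were 30.7% and 20.6%, and outside promoters 22.8% and 18.5%. H3K4me1-only regions of a single arm had 25.7% (NanogWT) and 22.1% (NanogBiD) at promoters, and 21.7% and 19.9% outside them. Windows 1 kb downstream of H3K4me1-only summits held it in 22.2%, so a large part of this frequency was shared with the surroundings. All RefSeq promoters held it in 20.2%. The CTCF consensus can contain the E-box letters, and 74 of the 198 H3K4me1-only windows with CTCF (37.4%) held an E-box too. Without windows that held CTCF, the E-box shares were 25.2% and 19.1%.

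CTCF letters occurred in 198 H3K4me1-only windows (3.39%, 2.95 to 3.88) and in 19 windows 1 kb downstream (0.325%). Regions with another target held them in 2.33%, a difference of 1.06 points (0.592 to 1.57), which came from outside promoters. There the shares were 4.24% and 2.65%, and at promoters they were 1.81% and 1.85%. H3K4me1-only regions found in NanogBiD alone had 3.63% and those found in NanogWT alone 1.32%. All RefSeq promoters of this length had 0.557%. In windows of 100 bases the difference between the classes shrank to 0.0649 points, with an interval (-0.170 to 0.356) that includes 0.

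The ETS letters were found in 2.04% of H3K4me1-only windows and 5.04% of regions with another target. The difference of -3.00 points was -1.30 in windows of 100 bases and -5.39 with the 20000 best peaks of each list. At promoters they were found in 2.83% and 9.98%, and outside promoters in 1.61% and 1.74%, where the interval of the difference (-0.536 to 0.344) includes 0. The OCT octamer, read by OCT4, was found in 2.12% and 2.54%, with an interval of the difference from -0.799 to 0.0114. Outside promoters it was found in 2.42% and 3.3%, a difference of -0.882 points (-1.39 to -0.296). At promoters the OCT difference was 0.166 points, with an interval (-0.332 to 0.826) that includes 0. Homeobox letters were rarer at H3K4me1-only summits (2.75%) than 1 kb downstream (7.68%), and regions with another target had 3.69% and 8.44%. The shares of SOX letters were 11.2% and 12.5% in the classes, of RUNX letters 5.49% and 6.49%, of FOX letters 2.60% and 3.34%, of NFI letters 15.8% and 15.5%, and of CEBP letters 1.92% and 2.04%. The SOX difference was -1.32 points (-2.17 to -0.416), and outside promoters it was -2.12 points (-3.28 to -0.906). At promoters the SOX difference was -0.864 points, with an interval that includes 0. All 12 consensus sequences are shown in the plot of match shares.

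**Figure D3:**
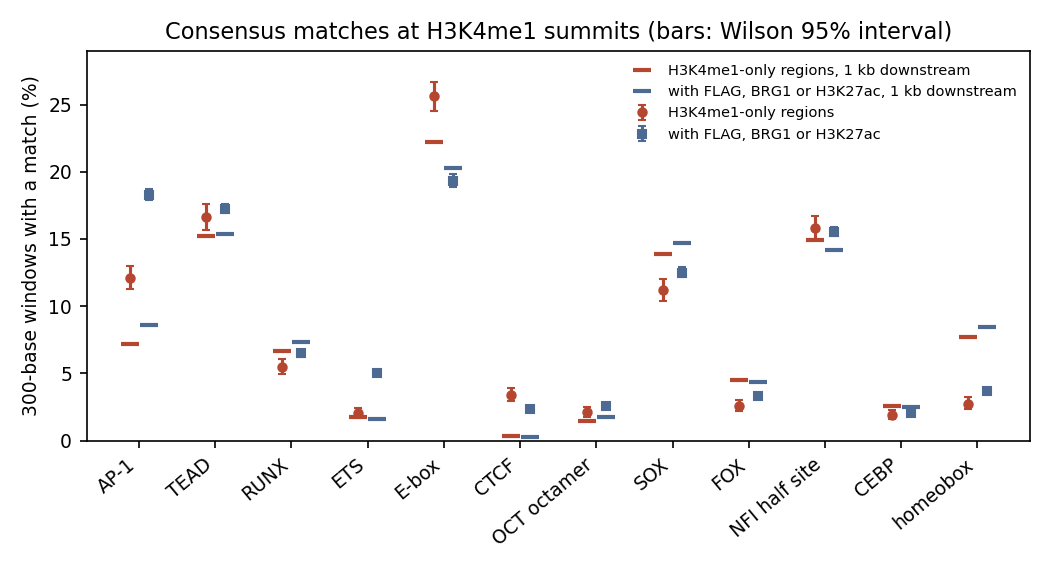
Share of 300-base windows holding each consensus (vertical axis, percent) for 12 consensus sequences (horizontal axis). Circles are H3K4me1-only regions and squares regions with another target, with Wilson 95% intervals, and short bars of the same colour are windows 1 kb downstream of each class. The widest gaps between the classes are at AP-1 (12.1% against 18.3%) and the E-box (25.6% against 19.3%).

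The nearest peaks of the other targets usually lay further away than the regions were wide. The median distance from an H3K4me1-only region to a FLAG peak was 12.4 kb in NanogWT and 9.95 kb in NanogBiD. To a BRG1 peak it was 21.5 kb and 13.6 kb, and to an H3K27ac peak 19.8 kb and 16.3 kb. The shorter distances were those of the longer lists: NanogBiD had 74782 FLAG, 53748 BRG1 and 42598 H3K27ac peaks against 58940, 30859 and 35452 in NanogWT. A peak of any of these targets in either arm lay within 2 kb of 981 H3K4me1-only regions (16.8%) and within 500 bp of 345 (5.90%).

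The rule separated regions by a single base pair at its edge. A region in an intron, chr1:152703410-152704972, touched a peak of another target with a gap of 0 bp and was kept, with 12 tags in each arm. A region on chromosome 4 in the promoter of Gm12966 was kept at a gap of 1 bp, with 11 tags in each arm. Left out by an overlap of 2 bp were a region in an intron of Fam53b, with 23 and 14 tags, and an intergenic region of chromosome 18 with 16 and 13. Such cases were few, since 65 H3K4me1-only regions had a gap of at most 100 bp and 64 regions with another target an overlap of at most 100 bp.

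The genes nearest to H3K4me1-only regions lacked promoter H3K27ac more often than those nearest to regions with another target. No H3K27ac peak of either arm lay at a promoter of the nearest protein-coding gene in 35.1% (33.9 to 36.4) of cases, against 13.5% for regions with another target. Of all protein-coding genes, 38.7% had no such peak, so 35.1% was not above that share. Part of this is fixed by the rule, because a region at a promoter was kept only if no H3K27ac peak overlapped it. Outside promoters, where the rule does not touch the promoter, the shares were 22.6% (21.3 to 24.0) and 18.6% (18.1 to 19.2), a difference of 3.97 points (2.56 to 5.42), higher on 16 of 20 chromosomes. With scores of at least 100 the difference was 10.2 points, and with summits of at least 15 tags it was 7.74. For H3K4me1-only regions of a single arm outside promoters, the shares were 19.6% in NanogWT and 20.4% in NanogBiD. Most distal H3K4me1-only regions had a nearest gene with H3K27ac in both arms (69.7%, against 73.9% for distal regions with another target). H3K27ac in NanogBiD only was found for 5.92% against 5.90%, and in NanogWT only for 1.82% against 1.60%, so these shares were near the background.

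Of 21951 protein-coding genes, 1647 (7.50%) had an H3K4me1-only region at a promoter and 5401 (24.6%) had one within the gene or its 20 kb flanks. Of the 1647 genes, 1061 (64.4%) had no promoter H3K27ac peak in either arm, 454 had one in both, 96 in NanogBiD only and 36 in NanogWT only. In the 454 the H3K27ac peak lay elsewhere within 2 kb of a start site, or at another start site of the gene. The 10832 genes with a common H3K4me1 region at a promoter but no H3K4me1-only region lacked H3K27ac in 3.72%, a contrast that the rule largely sets.

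The cells carried H3K27ac at fibroblast genes. Promoters of 11 of 12 fibroblast markers, such as Col1a1 and Pdgfra, had H3K27ac in both arms and 0 had an H3K4me1-only region. Over all protein-coding genes, 55.6% of promoters had H3K27ac in both arms, 38.7% had it in neither and 7.50% had an H3K4me1-only region. Of 8 pluripotency markers, 0 had H3K27ac in both arms, 2 had it in NanogBiD only and 6 in neither arm, and 3 had an H3K4me1-only promoter. The longer pluripotency list included genes such as Klf4 and Tbx3, and 6 of its 24 genes had H3K27ac in both arms. Epithelial markers had H3K27ac in both arms at 1 of 8 and an H3K4me1-only promoter at 5 of 8. For blood markers these were 1 of 6 and 2 of 6, for endothelial markers 2 of 6 and 1 of 6, and for neural markers 2 of 7 and 4 of 7.

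H3K4me1-only regions made up a larger share of the common H3K4me1 regions at neural, endodermal, muscle and pluripotency genes than over all genes. Over all protein-coding genes with 20 kb either side, 13.8% of common regions (7189 of 51938 pairs of region and gene) were H3K4me1-only. The share was 54.2% (32 of 59) for neural transcription factors, 50% (20 of 40) for endoderm genes and 36.1% (22 of 61) for muscle genes. It was 30.6% (11 of 36) for pluripotency genes, 27.3% (18 of 66) for epithelial genes and 27.1% (19 of 70) for genes of blood and endothelium. Bone and cartilage genes had 23.7%, genes of synapses and axon guidance 22% and mesenchymal transcription factors 21.8%. The fat list had 15.9% and the Wnt pathway 13.2%, both close to the share over all genes with the deposited lists of peaks. Lower values were found for fibroblast matrix genes (11.1%), the AP-1 and TEAD pathway (10.1%), the TGF-beta and BMP pathway (9.41%) and ribosomal protein genes (6.25%). The lists were chosen with earlier results known, and these shares are descriptions. The rule can set part of this order, because it removes regions with H3K27ac. Promoter H3K27ac was absent from both arms at 60.7% of neural, 77.3% of endoderm, 58.3% of muscle and 54.2% of pluripotency genes. Over all protein-coding genes that share was 38.7%. The neural, endoderm, muscle, pluripotency, epithelium, blood and endothelium, bone and mesenchymal factor lists lay above all genes under every alternative run, and each of the other 7 lists changed side under at least 1.

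**Figure D4:**
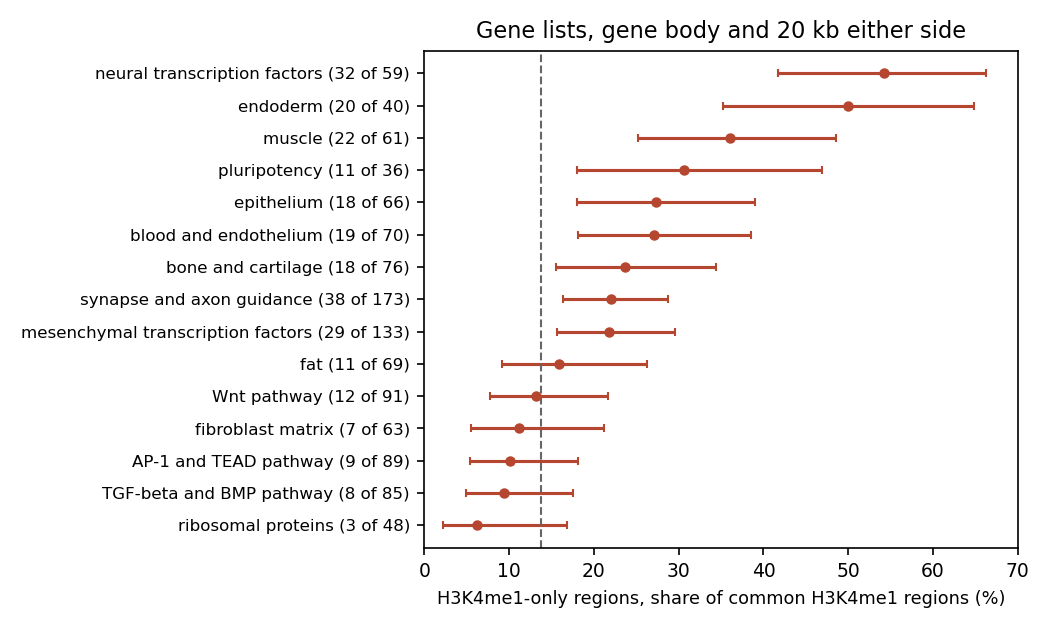
H3K4me1-only regions as a share of common H3K4me1 regions (horizontal axis, percent) within genes and their 20 kb flanks, for 15 gene lists, with the counts of region and gene pairs beside each name. Bars are Wilson 95% intervals and the dashed line is the 13.8% over all protein-coding genes. Neural transcription factors (54.2%) and endoderm genes (50%) lie highest and ribosomal protein genes (6.25%) lowest. The rule removes regions with H3K27ac, which can set part of this order.

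Promoters were counted separately. An H3K4me1-only region lay at the promoter of 9 of 22 endoderm genes, 10 of 28 neural transcription factors, 9 of 26 epithelial genes and 8 of 24 synapse and axon guidance genes, against 7.50% of all protein-coding genes. It lay at 6 of 22 bone and cartilage genes, 6 of 24 each for muscle, blood and endothelium, and Wnt genes, 5 of 24 pluripotency genes, 5 of 28 mesenchymal transcription factors and 3 of 18 fat genes. Fibroblast matrix, AP-1 and TEAD, TGF-beta and BMP, and ribosomal protein genes had 0. For the last 2 of these, every promoter (24 of 24 in each list) carried H3K27ac in both arms, which limits what the rule could keep there. The AP-1 and TEAD promoters carried it in both arms at 21 of 23 genes and the fibroblast matrix promoters at 19 of 24, against 55.6% of all protein-coding genes.

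At most of the 73 list genes with an H3K4me1-only promoter, the unscaled height was lower in NanogBiD. Their heights ranged from 12 to 25 tags in NanogWT (median 17) and from 9 to 21 in NanogBiD (median 15), lower in NanogBiD at 46 genes, higher at 16 and equal at 11. Of all H3K4me1-only regions at promoters, 61.8% were lower in NanogBiD. At 0 of the 73 did the arms differ by 2-fold, and 0.537% of H3K4me1-only promoter regions were at least 2-fold lower in NanogBiD. The widest ratio was 1.53, and the need for a peak in both arms limits such ratios. Promoter H3K27ac peaks, which the rule partly removes, were absent from both arms at 59 of the 73 (64.4% of all genes with an H3K4me1-only promoter), present in both at 10, in NanogBiD only at 4 and in NanogWT only at 0. Those with it in NanogBiD only included Nr5a2, Pax6 and Cntn4, and those with it in both arms included Bmp4, Cebpd, Col2a1, Foxd1, Myb, Nfix, Wnt5b and Zfp423.

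Among neural transcription factors, Neurod2, a bHLH factor of cortical neurons, had 20 tags in NanogWT and 17 in NanogBiD at its promoter. The bHLH factors Olig1, Olig2 and Olig3 had 12 and 14, 17 and 14, and 18 and 19. Lhx5, a LIM homeobox factor, had 19 and 14. Otx2, a regulator of the forebrain, had 17 and 12, and Pax6, an eye and forebrain regulator, had 13 and 17. Of the 28 neural factors, 17 lacked H3K27ac at the promoter in both arms (38.7% of all genes did). Of the 10 with an H3K4me1-only promoter, 9 lacked it, as did 64.4% of all genes with such a promoter, a state that the rule partly sets. At Lhx5, 3 of 3 common regions were H3K4me1-only, and at Neurod2 and Pax6 3 of 4.

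Endodermal transcription factors had summits of 13 to 23 tags at their promoters. Sox17 had 20 tags in each arm, in a region at chr1:4491500-4493866. Foxa2 had 15 and 16, Gsc, an organiser homeobox gene, 20 and 19, and Mixl1, a mesendoderm factor, 14 in each arm. Pdx1, which specifies the pancreas, had 23 and 15, the widest ratio of all 73, and Ptf1a, a further pancreatic factor, had 19 and 15. Nkx2-1, a lung and thyroid factor, had 19 and 16. H3K4me1-only regions were 3 of 3 common regions at Nkx2-1 and at Ptf1a, and 2 of 2 at Foxa2 and at Sox17. None of the 9 endoderm genes with an H3K4me1-only promoter had promoter H3K27ac in either arm, against 64.4% without it among all genes with such a promoter, a state that the rule partly sets.

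Epithelial genes are of interest because fibroblasts pass through a mesenchymal-to-epithelial transition during reprogramming. Cdh1, the gene of E-cadherin, had 16 tags in NanogWT and 14 in NanogBiD at its promoter. Epcam, an epithelial adhesion protein, had 13 and 11, Esrp1 19 and 18, and Cldn7, a tight junction claudin, 20 and 16. Ovol1 and Ovol2, repressors of mesenchymal genes, had 18 and 14, and 16 and 15. Each of the 9 epithelial genes had the lower height in NanogBiD, by 1 to 4 tags, as did 61.8% of all H3K4me1-only regions at promoters, in heights not scaled to depth. The 9 genes lacked promoter H3K27ac in both arms, as did 64.4% of all genes with an H3K4me1-only promoter. Grhl2, an epithelial transcription factor, had 3 H3K4me1-only regions among 6 common ones, and 0 at its promoter.

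Pluripotency genes were represented by Utf1, Esrrb, Fgf4, Prdm14 and Nr5a2. Utf1, a chromatin factor of pluripotent cells, had the highest heights of the list, 23 tags in NanogWT and 21 in NanogBiD. Esrrb, a naive pluripotency factor, had 20 and 15, and Fgf4, a growth factor made by pluripotent cells, 16 and 12. Prdm14, a regulator of naive and germ cells, had 12 and 10, and Nr5a2 17 and 18. Nr5a2 had an H3K27ac peak at a promoter in NanogBiD, and the other 4 had none in either arm, a state that the rule partly sets and that 64.4% of all genes with an H3K4me1-only promoter shared. At Sox2, 2 of 3 common regions near the gene were H3K4me1-only, and the promoter was not.

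**Figure D5:**
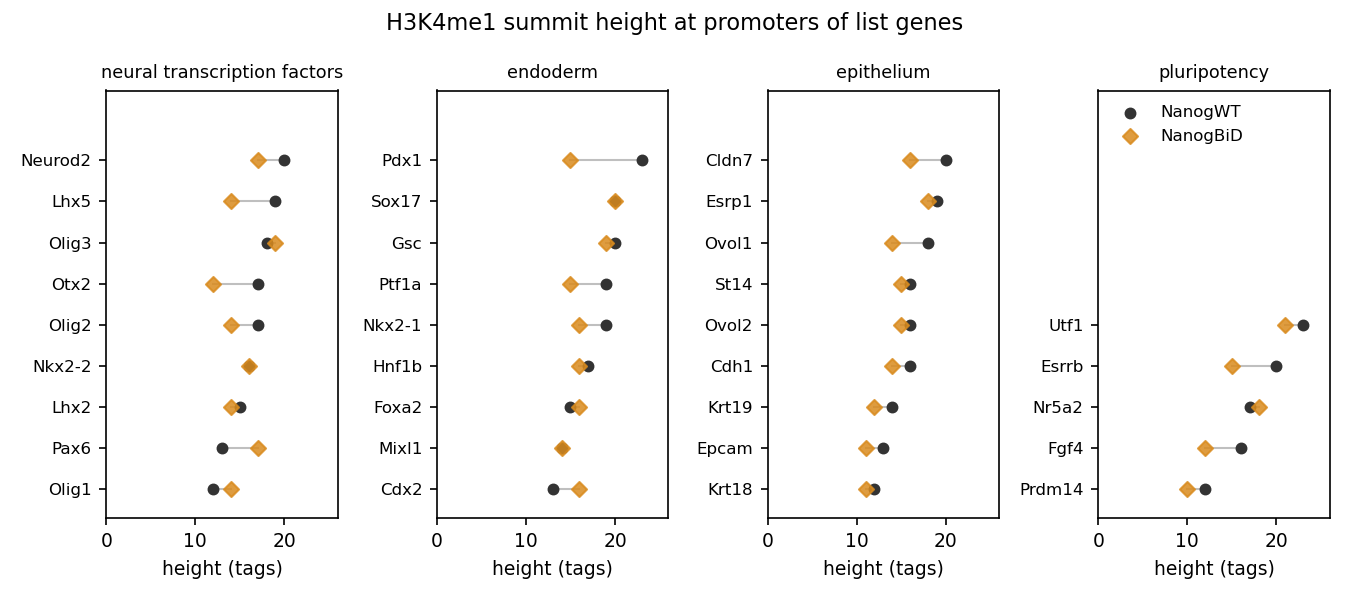
H3K4me1 summit height in tags (horizontal axis) of the H3K4me1-only region at promoters of genes of 4 lists, 9 of the 10 neural transcription factors and every such gene of the other lists, in NanogWT (circles) and NanogBiD (diamonds), joined by a line. Each point is a single merged library. Heights lie between 10 and 23 tags. They are not scaled to depth, and 61.8% of all H3K4me1-only regions at promoters are lower in NanogBiD.

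Of the muscle list 6 of 24 genes, and of the blood and endothelium list 6 of 24, had an H3K4me1-only promoter. Gata4, a cardiac and endodermal factor, had 17 and 18 tags, Nkx2-5, a cardiac homeobox factor, 15 in each arm, and Acta1, skeletal muscle actin, 16 and 19. Sox7 and Sox18, endothelial factors, had 19 in each arm, and 17 and 14. Etv2, the inducer of blood and vessel progenitors, had 20 and 16, and Ikzf1, a lymphoid factor, 16 and 18. Ihh, the hedgehog ligand of growth plate cartilage, had 25 and 19, the highest value in NanogWT among the 73.

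The 6 highest H3K4me1-only regions outside chromosome 18, by the summit of the lower arm, lay at promoters. Chromosome 18 was left out of this naming by the rule for named regions. On it, 2 intronic regions reached 26 and 23 tags in the lower arm, the former higher than any of the 6, so the highest region of all was not at a promoter. C1ql2, a synaptic C1q-like protein, had a region of 3321 bp at chr1:120339851-120343171 with 24 tags in each arm. Hic1, a tumour suppressor and transcriptional repressor, had 28 and 24 tags, and so did Rassf1, a further tumour suppressor. Myo18a, an unconventional myosin, had 23 and 24, Tradd, an adaptor of the TNF receptor, 27 and 23, and Zfp219, a zinc finger factor, 23 and 24. H3K27ac, BRG1 or FLAG peaks were close to some of them. The gap to the nearest such peak was 176 bp at Zfp219, 324 bp at Hic1, 1017 bp at C1ql2, 1077 bp at Rassf1, 2001 bp at Myo18a and 3256 bp at Tradd. Of the 73 H3K4me1-only regions with at least 20 tags in both arms, 55 were at promoters. The weakest end held more, with 392 regions of 8 or 9 tags in the lower arm.

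The regions were mostly scattered. Of the 5847 on chromosomes 1 to 19 and X, 1031 (17.6%) lay within 20 kb of another. The largest group, 6 of 7 common regions within 49.0 kb, was on chromosome 7 (45163645 to 45212678) around Pth2, Gfy, Ccdc155, Dkkl1 and Slc17a7, with heights of 11 to 18 tags in NanogWT and 12 to 16 in NanogBiD. At Fmnl1 on chromosome 11, 5 of 5 common regions in 31.9 kb were H3K4me1-only. At the LIM homeobox gene Lhx4, 4 of 4 common regions within 14.4 kb were, with 12 to 20 tags in NanogWT and 13 to 18 in NanogBiD. Further groups of 4 lay at Dlx3 and Dlx4, homeobox genes of the skeleton and skin, and at Foxd2 and Foxe3.

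By number of H3K4me1-only regions, mostly large genes led. An exception was Ccdc155, with 6 of 8 common regions in a locus of 0.0613 Mb. Gm20388, a locus of 4.47 Mb on chromosome 8 that spans many genes, had 33 of 171 common regions, and Fgfr2, annotated over 3 Mb with its flanks, had 9 of 95. Cacna1c, a cardiac and neuronal calcium channel, had 7 of 26, and Gm37240 7 of 38. Nrxn3, a presynaptic adhesion protein, had 6 of 11, Slit1, an axon repellent, 6 of 9, Dlgap2, a postsynaptic scaffold, 6 of 21, and Nav2, a neuron navigator, 6 of 22. Sdk1 had 5 of 23. Named by density instead, Casz1, a zinc finger factor of heart and neurons, had 5 of 10. Zfp423, a factor of fat and neural precursors, and Vti1a, also named by density, had 5 of 21 and 5 of 16. Across chromosomes the share of common regions that were H3K4me1-only ranged from 12% on chromosome 3 to 15.5% on chromosome 7.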

How the data were processed

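CUT&Tag for FLAG, BRG1, H3K27ac and H3K4me1 in 2 arms gave 8 groups of 1 merged library. Per the methods of the study and the submitters' processing notes, the authors trimmed reads with Trim Galore 0.6.4, aligned them to mm10 with Bowtie2 2.4.5, filtered out low-quality, repeat and mitochondrial alignments with SAMtools 1.16.1, merged replicates and called peaks with MACS 1.4.2, keeping 1 tag per position and naming no control library. The deposited peak score is the caller's significance, at least 50.0 in every list. The deposited summit signal is a tag pileup, called height here. The authors scaled neither to depth, which is unknown, so a list can be longer because its library was deeper.

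Regions, gaps and matches were computed with Python 3.11.15, pandas 2.3.3, scipy 1.17.1 and pysam 0.24.0, and tested on simulated data (0 of 4000 classes wrong). Overlaps needed 1 bp. The height of a region is that of its highest summit in each arm. Promoters are 2 kb either side of start sites in GENCODE M21. Sequence came from the RefSeq copy of GRCm38, whose chromosome lengths held every peak of chromosomes 1 to 19 and X. All 359 list genes and the markers matched by symbol. Shares have Wilson 95% intervals, differences of shares Newcombe intervals and medians order-statistic intervals, all for counting error. Regions were named by highest lower-arm summit outside chromosome 18, by extreme ratio, by list and by distance to the rule's edge, and genes by number and density of regions. Further list genes and the printed windows were chosen after values were seen. A few list genes are counted but not reported by name here. The members, lists and alternatives were chosen with earlier results of these data known.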

Additional observations from a re-analysis of the deposited data

How the results depend on the processing

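No paired analysis was possible because the deposited lists hold a single merged library for every target and arm, without replicate numbers. For the same reason no library could be left out. Unknown depth limits every comparison of heights and of peak presence. Of 238 recomputations under 17 alternatives, 164 stayed inside the main interval, within 1.5 times the main count or, for the differences of gene lists, which have no interval, on the same side of 0, and 171 of 193 signed values kept their sign, a count in which the height change under scaling is 1 of the flips. The cause was not tested where values moved, except that stricter lists hold fewer peaks.

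The number of H3K4me1-only regions was 2897 where every list was restricted to scores from 100 upwards, 3021 where it was restricted to its 20000 best peaks, 1122 with heights of at least 15 and 12918 where only other-target peaks with a score of at least 100 left a region out. In this order, their share of common regions was 18.9%, 24.3%, 6.28% and 31.1%, and it was 13.3% with targets widened by 500 bp. In the same order, the promoter share was 53.2%, 49.3%, 59.9% and 31.4%, and the CpG-rich share 31%, 27.6%, 36.7% and 13%. The share of distal regions whose nearest promoter lacked H3K27ac was 37.6%, 38.5% and 25.1% with the former 3 settings. The promoter share was 30.5% with promoters of 1 kb and 28.6% with protein-coding start sites, and the CpG-rich share outside promoters was 5.37%. The median log2 height change was -0.09 with heights of at least 15, -0.22 with scores and 0.10 with scaled heights, a scaling that moves all common regions alike.

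The AP-1 difference was -3.88 points with the highest-scoring peaks, -3.22 with the looser rule, -8.80 with heights of at least 15, -3.09 in 100-base windows and -9.53 outside promoters. The promoter difference between the classes was 1.14 points with the higher score, with an interval that includes 0, and turned to 6.80 with heights of at least 15. The CpG-rich difference, -2.97 points, turned to 0.0527 and 6.06 under the same settings and to 2.90 outside promoters.

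Against all protein-coding genes, the 6 lists near or below that share and the synapse list, 8.12 points above it, changed side under at least 1 alternative. With the higher score, differences were 5.68 points for AP-1 and TEAD, 6.61 for Wnt, 1.74 for fibroblast matrix, 0.683 for ribosomal proteins and -1.14 for synapse genes. The highest-scoring peaks gave 28.9 for Wnt, 7.78 for fibroblast matrix and 15 for ribosomal proteins. With the looser rule, values were 1.73 for TGF-beta and BMP, 8.43 for Wnt, 1.72 for fibroblast matrix and 1.22 for ribosomal proteins. Heights of at least 15 gave 1.82 for Wnt and -1.01 for synapse genes. For fat, 2.10 points as reported, the difference rose to 19.4 with scores from 100 upwards, 22.7 with the 20000 best peaks and 13.4 with the looser rule, and was 0.0699 with heights of at least 15. Assignment to the nearest start site gave -1.30 for fat and 1.70 for ribosomal proteins. The neural, endoderm, muscle, pluripotency, epithelium, blood, bone and mesenchymal factor lists stayed above all genes in every alternative.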
